A study of Homo sapiens with 12 samples.

Results

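Interferon-stimulated genes outside the IFIT and OAS families were examined in Ect1 cells, a line of human ectocervical epithelium immortalised with papillomavirus oncogenes. The set holds 40 genes, taken by symbol from general knowledge of the interferon response, and all 40 were found among the 19682 genes that the arrays named. They were read by 83 probe sets. The probe set that was brightest on average across the 12 arrays stands for its gene, and 18 genes had only 1 probe set. All 40 had a mean signal of at least 100 over the 12 arrays, so a filter at that level would remove 0 of them.

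Ect1 cells were grown to a confluent layer in serum-free keratinocyte medium with epidermal growth factor, bovine pituitary extract and added calcium. The medium was then replaced for 10 h by the same medium alone (control), by medium that held 10% of pooled human seminal plasma, or by medium with 5 ng/ml of TGFB3, a cytokine of the transforming growth factor beta family. RNA went onto 12 Affymetrix Human Genome U133 Plus 2.0 arrays, 4 for each treatment, and per the series' design text every array held a biological replicate made up of 4 pooled wells. A single immortal line stands for the tissue, seminal plasma is a mixture with many constituents, and 1 dose and 1 time point were measured for each treatment.

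Interferons are secreted proteins that cells release when they sense a virus. Type I and type III interferons bind receptors that activate the kinases JAK1 and TYK2, and these phosphorylate transcription factors that then enter the nucleus. There they bind the interferon-stimulated response element in gene promoters and switch on a large group of antiviral genes, many of which are also transcribed at a low tonic level without infection. Interferon gamma acts at a different sequence, the gamma-activated site.

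The promoters of the members were read first, because the response element is the sequence feature through which the group is known. RefSeq promoters on GRCh38.p14, 250 bases before to 50 bases after a gene's start, were at hand for 35 of the 40 genes. USP18, MX2, IFITM2, TRIM22 and PARP10 were not in that table. The core of the element, GAAA and a second GAAA with any 2 letters (NN) between them, was searched on both strands and occurred in at least 1 promoter of 27 of the 35 genes (77.1%), against 1195 of the 27305 genes of the table (4.38%). Matches can overlap each other, and a match is a description of the letters only. The letters TTCNNNGAA of the gamma-activated site, which read the same on both strands, occurred in 10 of the 35 (28.6%), against 9.38% of all genes. For comparison with the measurements below, the core was found in 4 of the 5 genes with a promoter in the table that fell with seminal plasma (80%) and in 22 of the 29 that did not pass the test (75.9%).

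Shown here are the genes with a response element whose levels passed the test with seminal plasma, with ISG15 as a member that did not. Each line gives the 250 bases before the start and the first 10 after it, 5′ to 3′ on the gene's own strand, with the letters of the core match in capitals.
RTP4 (chr3:187368135-187368394, plus strand): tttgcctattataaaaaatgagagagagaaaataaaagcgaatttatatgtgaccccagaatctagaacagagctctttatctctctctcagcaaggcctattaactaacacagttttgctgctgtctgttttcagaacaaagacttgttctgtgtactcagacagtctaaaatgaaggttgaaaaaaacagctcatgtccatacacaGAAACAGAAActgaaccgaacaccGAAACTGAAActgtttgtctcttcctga
RSAD2 (chr2:6877527-6877786, plus strand): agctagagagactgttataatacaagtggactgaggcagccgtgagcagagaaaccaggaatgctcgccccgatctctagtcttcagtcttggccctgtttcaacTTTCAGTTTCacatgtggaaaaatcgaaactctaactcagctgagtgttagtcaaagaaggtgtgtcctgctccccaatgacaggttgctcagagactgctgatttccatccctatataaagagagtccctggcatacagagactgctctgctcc
EIF2AK2 (chr2:37156971-37157230, minus strand): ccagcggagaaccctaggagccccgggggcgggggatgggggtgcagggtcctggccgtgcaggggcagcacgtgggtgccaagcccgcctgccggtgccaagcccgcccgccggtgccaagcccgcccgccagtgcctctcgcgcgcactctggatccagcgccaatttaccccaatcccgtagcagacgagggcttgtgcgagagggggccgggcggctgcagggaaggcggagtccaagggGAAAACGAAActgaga
PARP14 (chr3:122680589-122680848, plus strand): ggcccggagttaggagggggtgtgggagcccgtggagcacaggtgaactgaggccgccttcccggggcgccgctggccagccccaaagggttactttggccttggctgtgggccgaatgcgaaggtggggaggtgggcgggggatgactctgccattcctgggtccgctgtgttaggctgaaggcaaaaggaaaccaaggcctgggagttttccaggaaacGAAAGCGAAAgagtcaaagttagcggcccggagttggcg
PARP12 (chr7:140062942-140063201, minus strand): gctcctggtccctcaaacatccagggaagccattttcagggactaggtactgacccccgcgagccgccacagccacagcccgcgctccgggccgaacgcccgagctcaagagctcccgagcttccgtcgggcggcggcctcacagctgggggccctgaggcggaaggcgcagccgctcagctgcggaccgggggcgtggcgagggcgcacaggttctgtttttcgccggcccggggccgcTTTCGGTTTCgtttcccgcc
ISG15 (chr1:1013247-1013506, plus strand): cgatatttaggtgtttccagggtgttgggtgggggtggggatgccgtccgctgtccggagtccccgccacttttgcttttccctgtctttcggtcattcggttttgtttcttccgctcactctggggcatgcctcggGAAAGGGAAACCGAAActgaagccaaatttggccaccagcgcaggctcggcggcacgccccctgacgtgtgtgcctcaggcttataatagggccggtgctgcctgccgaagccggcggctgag

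RTP4 has 2 matches, which begin 42 and 18 bases before the start. The match of EIF2AK2 begins 6 bases before the start, that of PARP12 10 bases, that of PARP14 29 bases and that of RSAD2 145 bases. RSAD2 has 2 RefSeq promoters with different starts, and the second listed is shown. In ISG15 a pair of overlapping matches begins 113 and 107 bases before the start and so reads as 1 longer run of capitals. IFI16, which also fell, has 2 RefSeq promoters, and neither held a match in this window.

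A pair of members is divergently arranged and is shown for that reason. DTX3L and PARP9 are read in opposite directions from starts close to each other, and their proteins form a complex. For PARP9 the second listed of its 2 RefSeq promoters is used here. The windows of both hold 1 and the same match, at chr3:122564332-122564341, printed in each line on the gene's own strand.
DTX3L (chr3:122564088-122564347, plus strand): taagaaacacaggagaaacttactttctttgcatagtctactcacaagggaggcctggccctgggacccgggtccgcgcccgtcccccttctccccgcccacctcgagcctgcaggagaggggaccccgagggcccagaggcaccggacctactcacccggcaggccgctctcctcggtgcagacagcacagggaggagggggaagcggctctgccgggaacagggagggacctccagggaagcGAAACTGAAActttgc
PARP9 (chr3:122564291-122564550, minus strand): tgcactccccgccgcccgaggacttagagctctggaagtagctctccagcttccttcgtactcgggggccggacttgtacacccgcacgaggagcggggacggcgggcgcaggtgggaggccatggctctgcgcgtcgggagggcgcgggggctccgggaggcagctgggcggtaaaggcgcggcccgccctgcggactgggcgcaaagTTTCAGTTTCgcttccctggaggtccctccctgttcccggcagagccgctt

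The arrays were checked before the members. The mean signal after trimming was between 493.3 and 498.4 on every array. Seminal plasma replicates 3 and 4 stood apart: 8.01% and 12.8% of their probe sets read less than 16, compared with 16.3% to 20.2% on the other arrays, and limma's array weights were 0.189 and 0.323 against 0.62 to 2.84. Counts of members that passed or did not overlap with seminal plasma are therefore given with and without this pair. Control replicates 3 and 4 were close to each other, with a median absolute log2 difference of 0.11 over genes with a mean signal of at least 200, against 0.21 to 0.26 for the other control pairs. TGFB3 replicates 2 and 3 were likewise close (0.15 against 0.26 to 0.38). All 8 squamous markers, KRT5, KRT14 and TP63 among them, had a mean signal over 100 in every group. The summed signal of 8 leukocyte markers was 1144 to 1340 in the controls, 427 to 1184 with seminal plasma and 832 to 1017 with TGFB3, and PTPRC, their pan-leukocyte marker, had a mean of 15.1, 63.7 and 21.7. The monocyte marker CD14 had a mean of 688, 424 and 184. Its log2 fold change against control was -1.05 with seminal plasma (adjusted p in limma 0.262) and -1.90 with TGFB3 (0.327, and 0.00642 without seminal plasma replicates 3 and 4). LYZ was the 1 leukocyte marker that passed as lower with seminal plasma against control (-1.52, limma adjusted p 0.0382, and 0.124 without that pair). CSF1R passed as lower with seminal plasma than with TGFB3 (-1.59, limma adjusted p 0.0234, and 0.0576 without the pair), and 0 of 3 markers of plasmacytoid dendritic cells reached a mean of 100 in any group. The part of these marker levels in the results below was not tested. In bulk RNA, fewer cells with a transcript and less of it per cell cannot be told apart.

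The first comparison asks what the members did after 10 h with seminal plasma. Of the 40 genes, 7 fell (RTP4, RSAD2, USP18, TRIM22, PARP14, IFI16 and EIF2AK2), 1 rose (PARP12) and 32 did not pass an adjusted p of 0.05 with limma, adjusted after Benjamini and Hochberg across 54613 probe sets. Over all genes, 1.38% passed as lower and 1.87% as higher. The members' median log2 fold change was -0.57, beside 0.11 over all genes, and 32 of the 40 lay below 0, as did 42.9% of all genes. The 4 seminal plasma arrays all lay below the 4 control arrays for 9 members and all above for 1, against 7.59% and 8.88% of all genes. Without seminal plasma replicates 3 and 4, 34 of the 40 lay below 0, and the arrays did not overlap for 12 lower and 3 higher members, against 12.4% and 15.3% of all genes. Log2 fold changes here compare means of log2 signals after values under 16 were set to 16, and each ± is a standard error whose spread was estimated jointly on the 12 arrays, with n = 4 in each group.

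The count rests on few arrays. Without seminal plasma replicates 3 and 4, RTP4 was the 1 member still lower (0.391% of all genes were) and 0 were higher (0.666%), while the median stayed below that of all genes (-0.41 against 0.01). That fit keeps 2 seminal plasma arrays. The seminal plasma and control arrays fitted without the TGFB3 arrays also left RTP4 alone, as did the mean of each close pair of arrays taken as 1 sample. Of all genes, 0.0915% and 0.0305% were lower in these fits. Leaving out seminal plasma replicate 2, where many members lay near control, gave 16 members lower, the same 7 and 9 more (MX1, TRIM14, PARP9, IFI44, IFI44L, PLSCR1, LGALS3BP, EPSTI1 and CXCL11), when 8.61% of all genes were lower. Centring each array on its median moved the median of all genes from 0.11 to -0.27 and that of the members to -0.96. Such centring shifts all genes of an array alike, so the members' difference from all genes, -0.69, could not change. With quantile normalization this difference was -0.49, and without seminal plasma replicates 3 and 4 it was -0.42. After median centring 38 of the 40 lay below 0, since ISG20, SAMD9, DTX3L, SP100, SP110 and XAF1 turned sign. Quantile normalization turned the sign of TRIM5, TRIM21, IFI6 and XAF1. None of these genes passed in either.

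**Figure D1:**
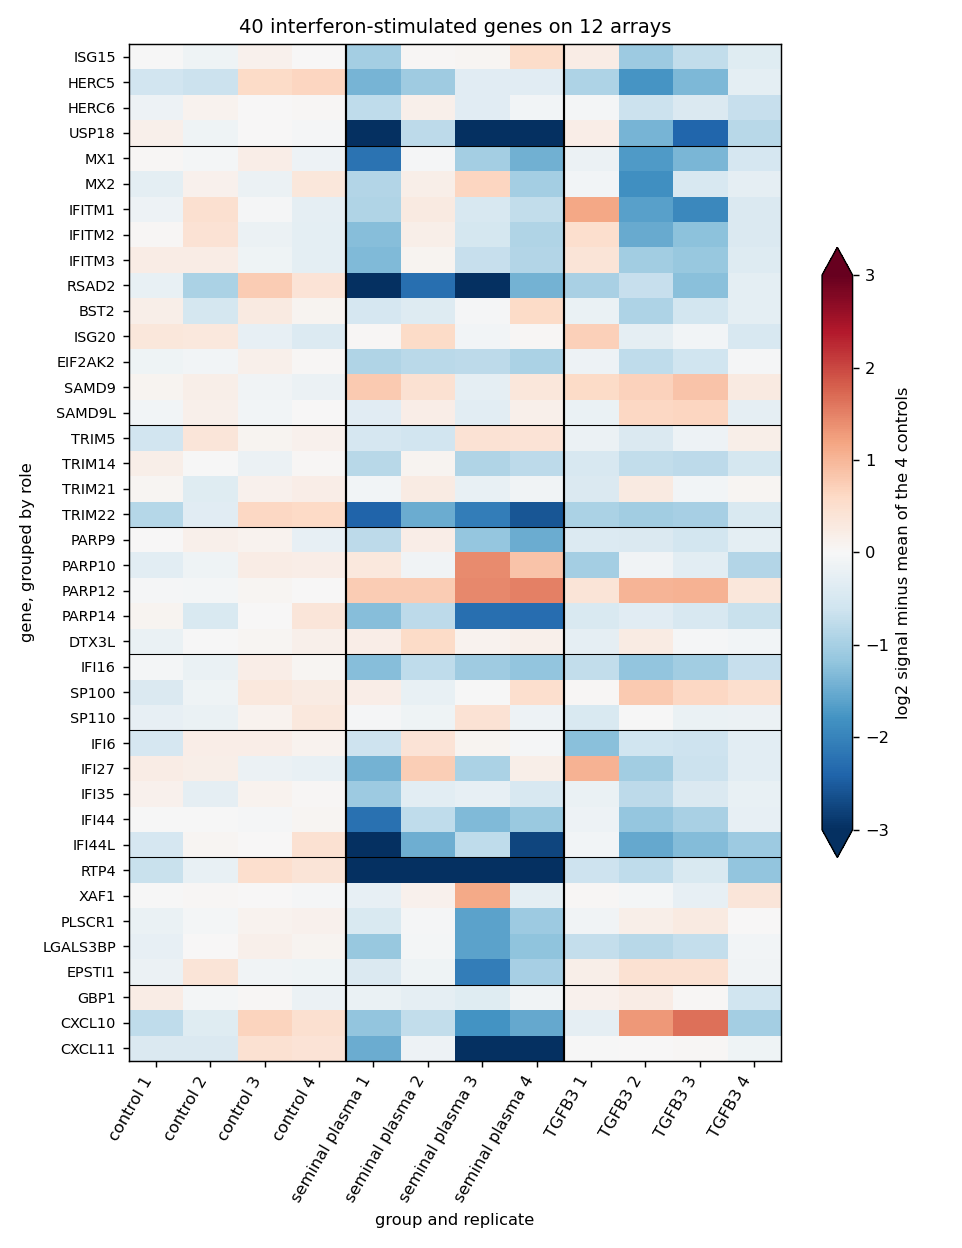
Log2 signal of the 40 members (rows, grouped by role) on each of the 12 arrays (columns), as the difference from the mean of the 4 control arrays; colours end at 3 either way. RTP4 is dark blue on all 4 seminal plasma arrays, while USP18, MX1, TRIM14 and several others are paler on seminal plasma replicate 2 than on replicates 1, 3 and 4.

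RTP4, a chaperone that brings certain G protein-coupled receptors to the cell surface and that also restricts viruses, changed most. It read 123, 165, 273 and 254 in control replicates 1 to 4, 7.86, 15.4, 20.6 and 5.85 with seminal plasma, and 126, 113, 142 and 84.6 with TGFB3. Every seminal plasma array lay far below every other array, and 3 of the 4 were under the floor of 16. RTP4 fell by 3.51 ± 0.27 log2 units with seminal plasma (11.4-fold, limma adjusted p 0.000266), a size that the floor understates. With a floor of 32 the log2 fold change was -2.60. It passed in all 12 fits that left out 1 array and in all 23 alternatives tried, with adjusted p between 3.48e-05 and 0.00943. Without seminal plasma replicates 3 and 4 the log2 fold change was -3.60 and the limma adjusted p 0.00523.

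RSAD2, or viperin, makes a nucleotide that stops viral RNA polymerases. Its signal was 347, 209, 680 and 535 in the controls and 14.1, 83.6, 16.4 and 151 with seminal plasma, so the groups did not overlap, and seminal plasma replicate 4 and control replicate 2 were their nearest arrays. With TGFB3 it was 204, 247, 169 and 328. RSAD2 fell by 3.24 ± 0.70 log2 units with seminal plasma (adjusted p in limma 0.0412). Its second probe set fell too, by 2.61 ± 0.54 (0.0361). The call held in 2 of the 12 fits without 1 array, and without seminal plasma replicates 3 and 4 the limma adjusted p was 0.068.

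The ISG15 group holds ISG15, a ubiquitin-like protein, HERC5, the ligase that joins it to other proteins, the related HERC6, and USP18, which removes it and also damps signalling at the interferon receptor. Of these 4, USP18 fell and 3 did not pass. The USP18 signal was 218, 180, 200 and 192 in the controls and 14.2, 113, 21.5 and 8.61 with seminal plasma, with 2 arrays under the floor. The controls lay close together, and seminal plasma replicate 2 lay well above the other 3 of its group yet below every control. USP18 fell by 2.81 ± 0.66 log2 units (adjusted p in limma 0.0495), passed in 2 of the 12 fits without 1 array and had an adjusted p of 0.276 without seminal plasma replicates 3 and 4. ISG15 itself was 5159, 4769, 5634 and 5226 in the controls and 2544, 5287, 5382 and 7576 with seminal plasma. These groups overlapped, and the seminal plasma arrays lay on both sides of the controls (log2 fold change -0.10 ± 0.35, limma adjusted p 0.882). HERC5 had a log2 fold change of -0.78 ± 0.42 and HERC6 of -0.26 ± 0.22.

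Among 11 genes that restrict virus entry, replication or release, RSAD2 and EIF2AK2 fell and 9 did not pass. EIF2AK2, the kinase PKR, halts protein synthesis when it binds double-stranded RNA. Its signal was 2485, 2557, 3017 and 2793 in the controls and 1459, 1557, 1576 and 1403 with seminal plasma, a narrow range below all controls. EIF2AK2 fell by 0.85 ± 0.18 log2 units (adjusted p in limma 0.0392). It passed in 4 of the 12 fits without 1 array, and its adjusted p was 0.12 without seminal plasma replicates 3 and 4. Of its other probe sets, the next brightest had a log2 fold change of -1.04 ± 0.30 and the dimmest -0.36 ± 0.35, and neither passed.

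MX1, a dynamin-like GTPase that traps viral nucleoproteins, was 1137, 1068, 1278 and 1001 in the controls and 239, 1094, 553 and 410 with seminal plasma. Seminal plasma replicate 2 lay among the controls and the other 3 lay below all of them. The log2 fold change was -1.18 ± 0.45 and did not pass (limma adjusted p 0.145). The membrane proteins IFITM1, IFITM2 and IFITM3, which block fusion of viruses with the cell, had log2 fold changes of -0.46, -0.63 and -0.70, and none passed. The 3 genes are near-identical in sequence, so the split of signal between their probe sets is uncertain. BST2, or tetherin, which holds budding viruses at the membrane, and ISG20, an exonuclease, were near 0 (-0.09 ± 0.28 and 0.14 ± 0.29). MX2, SAMD9 and SAMD9L had values of -0.26, 0.34 and -0.08.

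TRIM22, a ubiquitin ligase that restricts several viruses, was the 1 of 4 tripartite motif genes that fell. Its signal was 491, 704, 1363 and 1345 in the controls, 168, 317, 211 and 150 with seminal plasma and 461, 436, 450 and 648 with TGFB3. The controls fell into a lower and a higher pair, and every seminal plasma array lay below both. TRIM22 fell by 2.14 ± 0.36 log2 units (adjusted p in limma 0.0191). This call held in 9 of the 12 fits without 1 array, and TRIM22 had an adjusted p of 0.103 without seminal plasma replicates 3 and 4. TRIM14, an adaptor in antiviral signalling, had a log2 fold change of -0.61 ± 0.22 (0.129), with replicate 2 again among the controls. TRIM5, which recognises retroviral capsids, and TRIM21, a cytosolic antibody receptor, were near 0 (-0.06 ± 0.29 and -0.05 ± 0.20).

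The ADP-ribosyltransferases moved in both directions. PARP14, a mono-ADP-ribosyltransferase, had signals of 676, 463, 646 and 820 in the controls and 262, 368, 134 and 131 with seminal plasma, and the groups did not overlap. PARP14 fell by 1.65 ± 0.33 log2 units (adjusted p in limma 0.0308). That call held in 5 of the 12 fits without 1 array, and PARP14 had an adjusted p of 0.0926 without seminal plasma replicates 3 and 4. Its dimmer probe set did not follow, with a log2 fold change of 0.50 ± 0.41 (0.467) and a signal of 307 on seminal plasma replicate 3.

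PARP12, a zinc-finger member of the same family that inhibits the replication of several viruses, was the 1 member that rose. Its signal was 1696, 1675, 1814 and 1743 in the controls, 2922, 2952, 4695 and 4935 with seminal plasma and 2280, 3483, 3585 and 2197 with TGFB3. All 8 treated arrays lay above all 4 controls, and the highest values with seminal plasma were on the arrays that stood apart. PARP12 rose by 1.12 ± 0.24 log2 units (adjusted p in limma 0.0394) and passed in 4 of the 12 fits without 1 array. The log2 fold change was 0.73 (adjusted p 0.129) after centring each array on its median, and without seminal plasma replicates 3 and 4 the adjusted p was 0.161. PARP10 had a log2 fold change of 0.62 ± 0.33 (0.265). The partners PARP9 and DTX3L, whose windows hold the same element, had values of -0.81 ± 0.30 and 0.25 ± 0.17, and neither passed.

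IFI16, a sensor of foreign DNA in the nucleus, fell, and the nuclear body proteins SP100 and SP110 did not pass. The IFI16 signal was 7864, 7078, 9356 and 8502 in the controls, 3364, 4773, 3921 and 3580 with seminal plasma and 4894, 3609, 3946 and 5065 with TGFB3. Both treated groups lay wholly below the controls and overlapped each other. IFI16 fell by 1.07 ± 0.18 log2 units with seminal plasma (adjusted p in limma 0.018). It passed in 10 of the 12 fits without 1 array and had an adjusted p of 0.0673 without seminal plasma replicates 3 and 4. Its second probe set fell by 1.16 ± 0.17 (0.0128). The third had a log2 fold change of 0.45 ± 0.70 and read 18129 and 11069 on seminal plasma replicates 3 and 4, against 2322 and 1718 on replicates 1 and 2. SP100 and SP110 had log2 fold changes of 0.11 ± 0.24 and 0.03 ± 0.19.

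Apart from IFI16, none of the 5 IFI genes (IFI6, IFI27, IFI35, IFI44 and IFI44L) passed, although IFI44 lay just outside the threshold. IFI44, a cytoplasmic protein of the response, was 1556, 1557, 1524 and 1647 in the controls and 330, 919, 623 and 727 with seminal plasma. The controls were nearly equal and all seminal plasma arrays lay below them (log2 fold change -1.37 ± 0.33, limma adjusted p 0.0511). The second probe set of IFI44 passed (-2.80 ± 0.56, adjusted p 0.0314). IFI44L, its paralogue, was 189, 282, 271 and 368 in the controls and 9.41, 97.6, 159 and 40.2 with seminal plasma, again without overlap (-2.26 ± 0.63, limma adjusted p 0.0703). IFI35 and IFI27 had values of -0.54 ± 0.22 and -0.37 ± 0.52. IFI6, a small membrane protein, was near 0 (-0.04 ± 0.28).

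Of the other members, LGALS3BP, a secreted glycoprotein, differed by -1.01 ± 0.31 log2 units (adjusted p 0.0884 in limma). EPSTI1 had one of -0.91 ± 0.37 and PLSCR1, a lipid scramblase, of -0.80 ± 0.30, and XAF1, which promotes cell death, had 0.18 ± 0.29. In the first 3 of these genes seminal plasma replicate 2 lay within the range of the controls, and replicates 1, 3 and 4 lay below it. Genes that interferon gamma induces strongly did not pass. CXCL11, which attracts T cells, was 369, 372, 686 and 663 in the controls and 179, 447, 18.3 and 46.3 with seminal plasma, an overlap through replicate 2 (-2.46 ± 0.80, limma adjusted p 0.0987). Its second probe set read 283 and 132 on seminal plasma replicates 3 and 4 and had -0.93 ± 0.30 (limma adjusted p 0.102). CXCL10, a chemokine at the same receptor, had -1.31 ± 0.58 (0.191), and GBP1, a guanylate-binding protein, had -0.23 ± 0.19 (0.475).

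**Figure D2:**
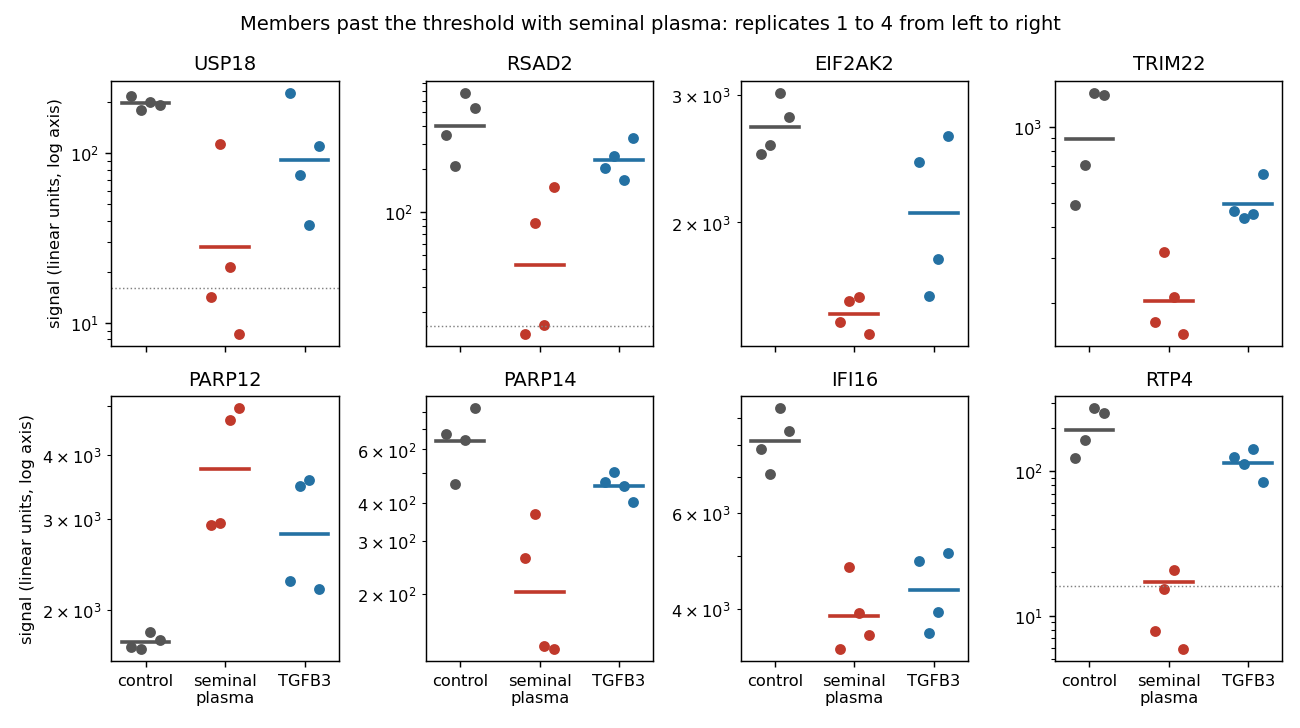
Signal (linear units on a log axis) of the 8 members that passed with seminal plasma, 1 point per array with replicates 1 to 4 from left to right; bars are the means on the log scale and the dotted line is the floor of 16. PARP12 is the 1 panel where seminal plasma lies above control, and RTP4 the panel where the seminal plasma arrays lie from 5.85 to 20.6, far from both other groups.

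The second comparison asks whether TGFB3 alone changed these genes. With limma, 0 of the 40 passed in either direction, when 0.254% of all genes were higher and 0.0406% lower. At an unadjusted p under 0.05 there were 8, of which 6 were lower and 2 higher, beside 5.31% and 4.48% of all genes. The members' median log2 fold change was -0.47, beside -0.01 over all genes, and 32 of the 40 lay below 0, as did 51.1% of all genes. This comparison shares its control arrays with the first, so the signs in both are not independent. The arrays of the groups did not overlap for 5 members that were lower (MX1, IFI16, TRIM14, IFI44 and PARP9) and 2 that were higher (SAMD9 and PARP12), against 6.65% and 4.74% of all genes.

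IFI16 was the member nearest to the threshold with TGFB3, at -0.91 ± 0.18 log2 units (adjusted p 0.0951 in limma). Of 24 alternatives, 3 put it past the threshold, among them a floor of 32 (0.0427), and the adjusted p ranged from 0.00603 to 0.779. PARP12 had 0.70 ± 0.24 (0.443), and SAMD9, which restricts poxviruses, had 0.59 ± 0.23 (0.535), from 943, 1002, 825 and 787 in the controls to 1308, 1423, 1592 and 1074. On the second probe set of SAMD9 the groups overlapped, with 0.15 ± 0.22 (limma adjusted p 0.991). TRIM14 had -0.64 ± 0.22 and MX1 -0.94 ± 0.45. HERC5 was 859, 820, 1929 and 2014 in the controls and 678, 378, 504 and 1055 with TGFB3, an overlap through TGFB3 replicate 4 (-1.08 ± 0.42, limma adjusted p 0.554). USP18 and RTP4 had values of -1.10 ± 0.66 and -0.76 ± 0.27.

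CXCL10 split the TGFB3 arrays, with 446, 1327, 1687 and 265 beside 315, 416, 847 and 751 in the controls (0.42 ± 0.58). Replicates 2 and 3, the close pair, were high and replicate 4 was below every control. The same pair was the lowest for MX1, at 342 and 432, where replicates 1 and 4 read 995 and 783. For IFITM3 it read 7367 and 6822 beside 19689 and 11556. Over the 40 members this pair lay below the other 2 TGFB3 arrays in 19 genes and above them in 10, beside 22.9% and 22.7% of all genes. Control replicates 3 and 4, the other close pair, lay above the other 2 controls in 17 members and below them in 5, beside 24.7% and 23.4%.

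**Figure D3:**
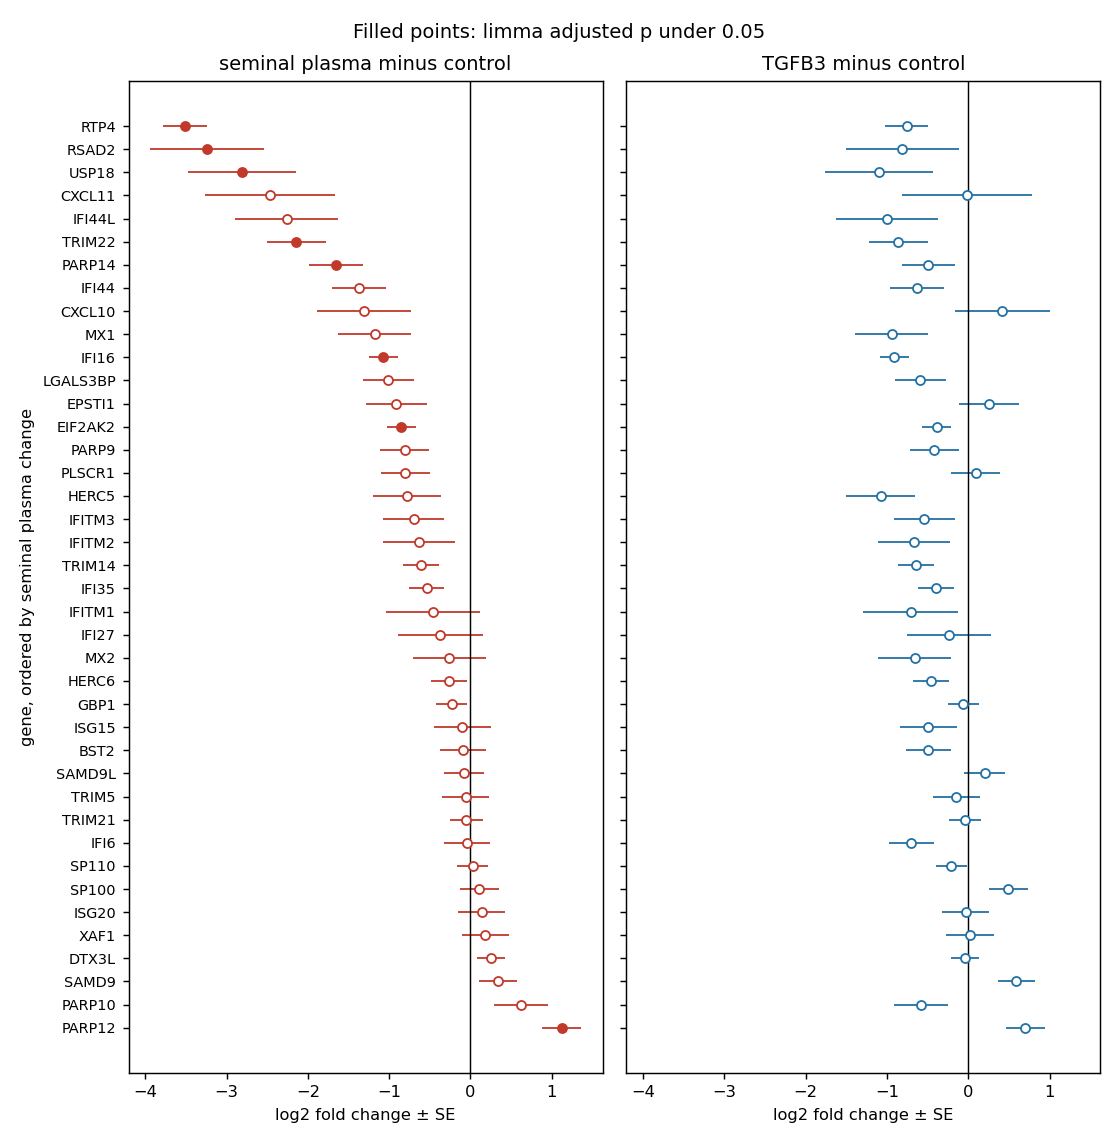
Fitted log2 fold change of each member (rows, ordered by the change with seminal plasma) with its standard error, seminal plasma minus control on the left and TGFB3 minus control on the right; filled points passed a limma adjusted p of 0.05. The left panel spans -3.51 for RTP4 to 1.12 for PARP12 and has 8 filled points, and the right panel spans -1.10 to 0.70 and has none.

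The direct comparison of both treatments takes its fold changes from their 8 arrays, while its spread was estimated with the controls too. It called RTP4 lower with seminal plasma and none of the other 39. RTP4 fell by 2.75 ± 0.27 log2 units relative to TGFB3 (adjusted p in limma 0.00356), and in all 12 fits without 1 array. In a fit of the 2 treated groups alone its limma adjusted p was 0.0244, with 0.0102% of all genes lower. Without seminal plasma replicates 3 and 4 the adjusted p was 0.017, and 0.279% of all genes were lower. Over all genes, 0.752% were lower and 1.21% higher. The members' median was -0.16, beside 0.12 over all genes, and 24 of the 40 lay below 0, as did 42.3% of all genes. The arrays did not overlap for 7 members that were lower with seminal plasma and 1 that was higher, against 4.80% and 6.83%. Without seminal plasma replicates 3 and 4, 25 lay below 0, and the arrays did not overlap for 8 lower and 1 higher, against 9.34% and 12.8%.

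The 7 were RTP4, RSAD2 (-2.43 ± 0.70, limma adjusted p 0.0947), CXCL11 (-2.44 ± 0.80), TRIM22 (-1.28 ± 0.36, 0.0871), PARP14 (-1.17 ± 0.33, 0.0882), EPSTI1 (-1.16 ± 0.37, 0.114) and EIF2AK2 (-0.46 ± 0.18). The 1 that was higher was PARP10, with 578, 436, 1242 and 845 under seminal plasma and 229, 429, 372 and 254 under TGFB3 (1.21 ± 0.33, 0.082). The closest arrays of PARP10, at 436 and 429, hardly differed. For IFI16 the treatments differed by -0.16 ± 0.18 and for PARP12 by 0.42 ± 0.24, and neither difference passed. CXCL11 was 496, 502, 515 and 456 with TGFB3, close to one another and above all seminal plasma arrays. On its second probe set the treatments overlapped and differed less (-0.66 ± 0.30, limma adjusted p 0.229). That probe set read 170, 334, 283 and 132 with seminal plasma and 365, 347, 353 and 296 with TGFB3.

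Set against the mean of the controls, the median of the members on single arrays stood at -0.88, -0.07, -0.50 and -0.76 for seminal plasma replicates 1 to 4. It was -0.16, -0.68, -0.48 and -0.30 in TGFB3 replicates 1 to 4, and -0.10, -0.05, 0.09 and 0.06 in the controls. Seminal plasma replicate 2 was thus close to the controls for the set as a whole, while replicate 1, which did not stand apart over all probe sets, was the lowest. RTP4, RSAD2, USP18, TRIM22, PARP14, IFI16, EIF2AK2, IFI44 and IFI44L lay below all controls on every seminal plasma array, replicate 2 included. The mean was lowest with seminal plasma for 22 members, with TGFB3 for 14 and in the controls for 4. This order was not counted over all genes, so whether it is particular to the members is not known. The median SD of log2 signals over members was 0.26 in the controls, 0.53 with seminal plasma and 0.34 with TGFB3, close to 0.29, 0.59 and 0.34 over all genes.

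**Figure D4:**
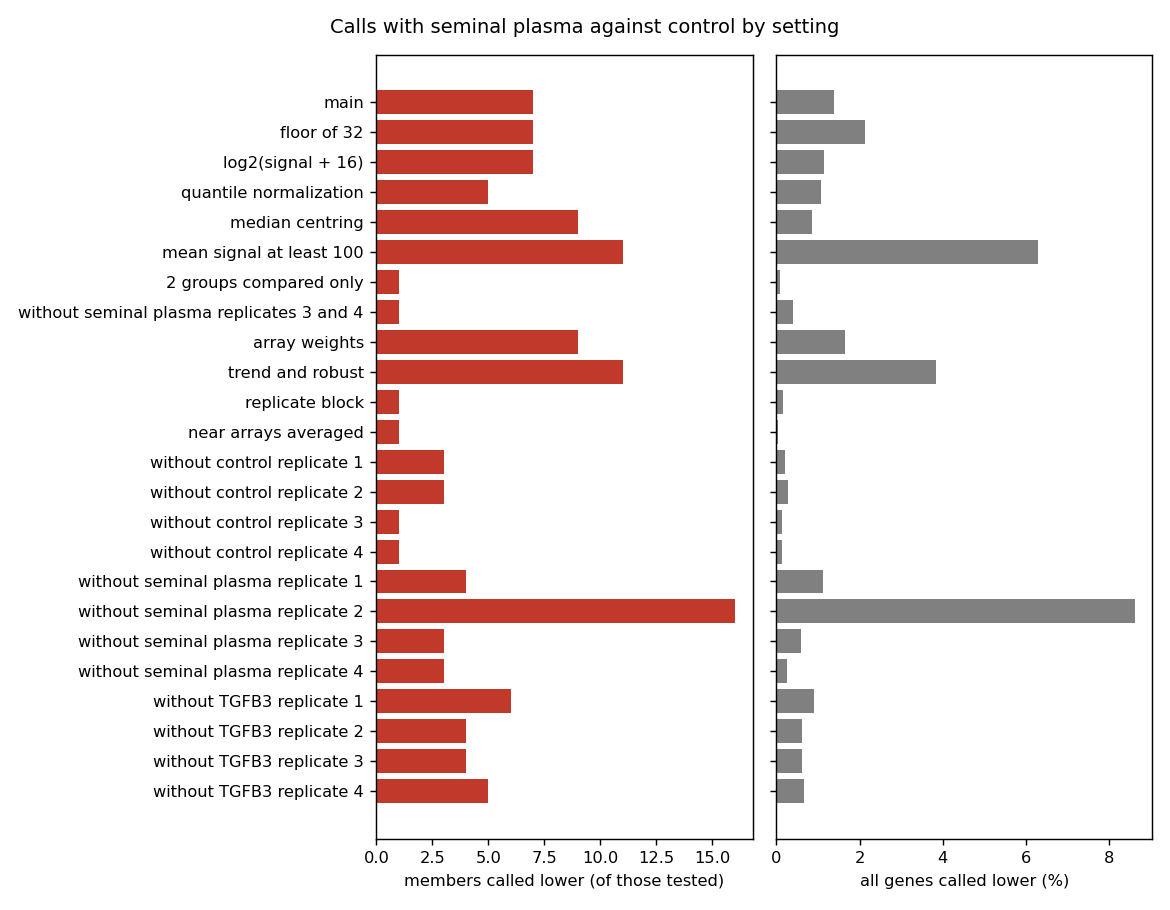
Number of members that passed as lower with seminal plasma against control (left) and percent of all genes that did (right), for the fit used in the text and each alternative. Members called range from 1 to 16, and the 16 without seminal plasma replicate 2 go with 8.61% of all genes.

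The signs of dimmer probe sets were compared for the 22 members with several. Of 26 further probe sets with a mean signal of at least 100, 16 had the sign of the brightest with seminal plasma, and 22 did with TGFB3. The others with seminal plasma belonged to GBP1, IFI16, PARP10, PARP14, SAMD9, SP110 and TRIM14. SP110 read -0.39, -0.53, -0.63 and -0.69 in 4 dimmer probe sets beside 0.03 in the brightest, and none of the 5 passed. For GBP1 the third probe set had -0.85 ± 0.22 (limma adjusted p 0.0604) beside -0.23 in the brightest. Between the treatments only 13 of the 26 had the sign of the brightest. There the second probe set of PARP10 had -0.59 ± 0.83 beside 1.21 in the brightest, while its dimmer ones had 0.95 and 0.86. Probe sets of 1 gene lie on the same arrays and are no replicates.

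**Figure D5:**
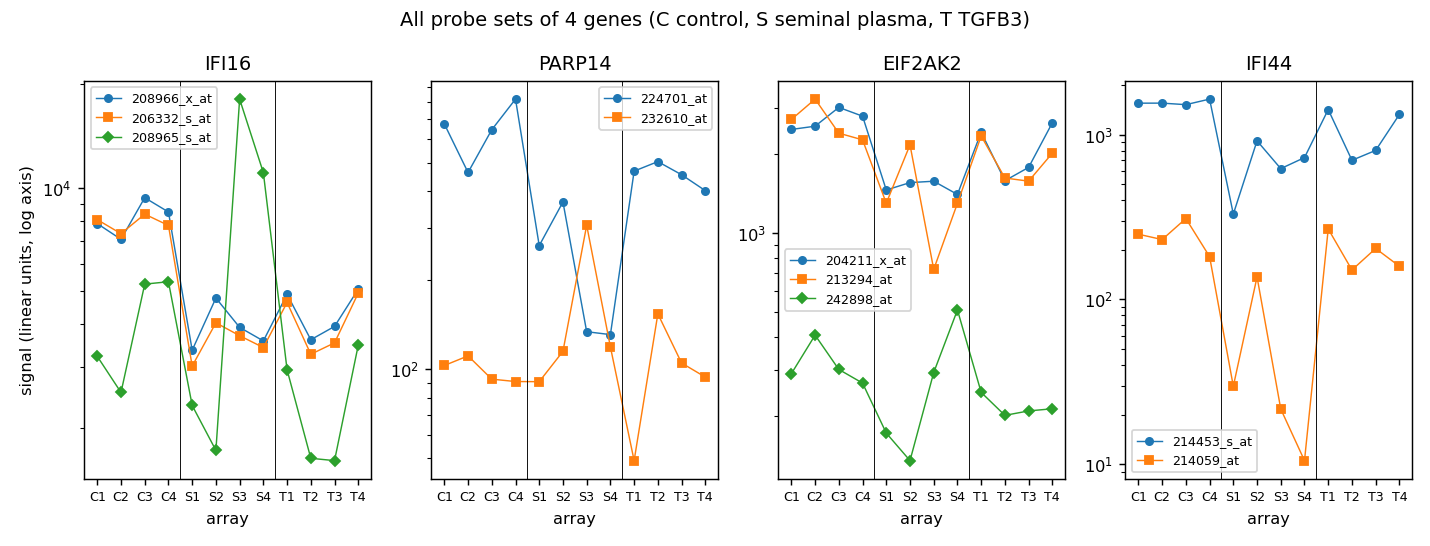
Signal (linear units on a log axis) of every probe set of IFI16, PARP14, EIF2AK2 and IFI44 on the 12 arrays, in the order control, seminal plasma and TGFB3, replicates 1 to 4. The third probe set of IFI16 reads 18129 and 11069 at seminal plasma replicates 3 and 4, against 1604 to 5325 on the other arrays, and the dimmer probe set of PARP14 is highest at replicate 3 (307).

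In the authors' deposited table, whose calls all have a p of at most 0.0499 and a fold of at least 2, the same probe sets gave 10 members lower and 1 higher with seminal plasma. There, 3.06% of all probe sets were called lower and 4.18% higher. The authors' deposited table lists RTP4 at a signed fold of -16.39, RSAD2 at -6.68, USP18 at -5.0, TRIM22 at -4.61 and IFI44L at -3.63. It also calls CXCL11 (-3.02), PARP14 (-2.91), CXCL10 (-2.59), IFI44 (-2.42), IFI16 (-2.1) and, higher, PARP12 (2.24). EIF2AK2, which passed with limma, is not called there, in the authors' deposited table. With TGFB3, HERC5 is the 1 member called in the authors' deposited table (-2.15, p-value 0.0362), when 0.535% of probe sets were called lower and 1.08% higher.

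The rest of the interferon pathway was read on the same arrays. Of the IFIT and OAS families, the other large group of antiviral targets, 5 of 8 genes fell with seminal plasma (IFIT1, IFIT3, OAS1, OAS2 and OASL), 0 rose, and the median log2 fold change was -2.05. Over all genes, 1.38% were lower and 1.87% higher in this comparison, and the median was 0.11. Of 8 nucleic acid sensors and adaptors, IFIH1, which detects long double-stranded RNA, fell by 1.16 ± 0.17 (limma adjusted p 0.0125) and TLR3, an endosomal sensor of such RNA, by 1.44 ± 0.26 (0.0242), while 6 did not pass. These sensors include RIGI (-0.88 ± 0.24, 0.0701). Of 4 feedback inhibitors, PIAS1 fell by 0.78 ± 0.17 (0.0429) and NMI by 0.72 ± 0.17 (0.0498). Of these 9 genes IFIH1 (0.0394) and PIAS1 (0.0262) still passed without seminal plasma replicates 3 and 4, and RIGI (0.0346) and, as higher, the inhibitor SOCS1 (0.0226) passed in that fit but not with all arrays.

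Among the genes upstream, none of 7 transcription factors passed with seminal plasma. IRF2, which competes with other interferon regulatory factors at the response element, had a signal of 1052, 1061, 1375 and 1393 in the controls and 684, 818, 504 and 413 with seminal plasma, without overlap (-1.05 ± 0.28, adjusted p 0.0676 in limma). None of 9 receptor and kinase genes passed against control, where the kinase TYK2 had -0.57 ± 0.17 (0.0874) and the type I receptor chain IFNAR1 0.65 ± 0.20 (0.0916). The kinase JAK1 was lower with seminal plasma than with TGFB3 (-1.70 ± 0.35, limma adjusted p 0.0436), with seminal plasma replicates 3 and 4 at 1156 and 781 and the first 2 at 2450 and 2541. Without replicates 3 and 4 this was -1.01 and JAK1 did not pass (limma adjusted p 0.0576). OASL (-2.04 ± 0.35, limma adjusted p 0.027) and IFIH1 (-0.88 ± 0.17, 0.0369) were also lower with seminal plasma than with TGFB3. Without that pair of arrays neither passed (limma adjusted p 0.12 and 0.0869).

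None of 5 interferon genes measured passed. IFNB1, a type I interferon that epithelia can make, had a mean signal of 6.50 in the controls, 9.42 with seminal plasma and 21.2 with TGFB3. In the first 2 groups all arrays were under the floor of 16, so no change could be detected there. IFNK, an interferon of keratinocytes, had a log2 fold change of 1.99 ± 0.51 with seminal plasma (limma adjusted p 0.0599), from 30.9, 18.1, 4.44 and 1.79 in the controls to 52.0, 83.9, 58.5 and 138. IFNL2, a type III interferon, had 1.10 ± 0.37 (0.107). Of the rest of the ISG15 system, 0 of 3 passed, with UBE2L6, the conjugating enzyme, at -1.13 ± 0.27 (0.0532) and UBA7, the activating enzyme, at -1.04 ± 0.34 (0.0978). With TGFB3, 0 genes of these 7 lists passed against control with all 12 arrays. Without seminal plasma replicates 3 and 4, which leaves these fold changes as they were, JAK1 (0.96, limma adjusted p 0.0391) and SOCS1, a feedback inhibitor of cytokine signalling (1.01, 0.024), passed as higher with TGFB3.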

How the data were processed

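Transcripts were measured on 12 Affymetrix U133 Plus 2.0 arrays, grouped by the treatment in the labels. The deposited values are linear intensity readings, 1 for each probe set of an array, and the authors added a table with their signed fold score, p-value and call for each treatment against control. The submitters' processing notes name RMA, MAS5, Partek, GCOS 1.4 and R 2.6.1 without saying what each did. Which test gave the deposited p-value is not stated there. Labelling was single-cycle per the design text and whole-transcript sense per the labels' protocols, and which applies is not known. The scale was read from the deposited intensity values, which are positive and have almost equal trimmed means.

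Of 54613 probe sets, 39873 carried 1 gene symbol, 1522 several, 13164 none and 54 a calendar entry. Only those with 1 symbol were named, and 1 of the probe sets with several held a member. Any intensity below 16 was raised to 16 before the log2 step, so that changes of dim genes are understated. The functions lmFit and eBayes of limma 3.58.1, under R 4.3.3, fitted all 12 arrays with 1 mean per treatment and 9 residual degrees of freedom, with Benjamini-Hochberg adjustment over all probe sets and a threshold of 0.05. The script was tested on simulated data with known changes. Tables and plots come from Python 3.11.15, pandas 2.3.3, numpy 2.4.6 and matplotlib 3.10.9. The number of arrays limits the precision, and 0 columns of samples were unused.

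All members may be named. Genes of other lists were named where called, or, with none called, the 2 with the smallest p (1 gene that this rule names is not reported here); IFNB1, RIGI and SOCS1 were also singled out after their values were seen. The members and lists were chosen with earlier results of these data known. The motifs were searched in RefSeq promoters. Replicate numbers were not used to pair arrays in the fit of the text. Same-number correlations of deviations from group means were -0.091 to 0.154, and 2 of 12 exceeded 0.1, which cannot exclude a pairing. The alternatives were another floor, a pseudocount of 16, quantile normalization, median centring, a filter on dim probe sets, fits of 2 groups, array weights, moderation with trend, the second brightest probe set, a replicate block and leaving out arrays. Averaging the close arrays was added after seeing the data.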

Additional observations from a re-analysis of the deposited data

Results flagged for a closer look

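In 120 groups of 4 arrays (40 members in 3 treatments), a single array lay so far from the other 3 of its group that its gap exceeded 0.829 of the group's whole range in 8. Chance flags about 1 in 20 groups. On seminal plasma replicate 2 the signal was high for USP18 (113), ISG20 (1903) and TRIM14 (1579). For SP110 it was high on seminal plasma replicate 3 (1621). TGFB3 replicate 4 was high for TRIM22 (648) and for LGALS3BP (6390). Among the controls, IFI6 was low on replicate 1 (540) and EPSTI1 high on replicate 2 (453).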

How the results depend on the processing

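Alternatives were set beside the fit of all 12 arrays. With seminal plasma against control, 7 members were lower and 1 higher (1.38% and 1.87% of all genes). The higher call was 0 with only the 2 groups compared, with array weights, after median centring, with close arrays averaged, with the replicate block and without seminal plasma replicates 3 and 4. In that order, 0.335%, 2.04%, 0.528%, 0.208%, 0.412% and 0.666% of all genes were higher. The count lower was 1, RTP4 in each case, with the 2 groups alone, the close arrays averaged, the replicate block or without seminal plasma replicates 3 and 4. In that order, 0.0915%, 0.0305%, 0.147% and 0.391% of all genes were lower. The count of members lower was 9 after median centring (0.854%). It was 11 with probe sets of mean signal at least 100 (6.29% of all genes then lower) and 11 with trend and robust moderation (3.84%). Leaving out 1 array at a time gave 1 to 16 lower and 0 to 1 higher. With control replicates 1 to 4 left out in turn, 3, 3, 1 and 1 were lower (0.208%, 0.285%, 0.127% and 0.132% of all genes). For those of seminal plasma, 4, 16, 3 and 3 were lower (1.12%, 8.61%, 0.6% and 0.249%). For those of TGFB3, 6, 4, 4 and 5 were lower (0.909%, 0.605%, 0.625% and 0.655%). From 0.386% to 8.83% of all genes were higher in these fits. The median log2 fold change was -0.96 after median centring and -0.72 to -0.38 without 1 array. With TGFB3 against control, a floor of 32 gave 1 member lower (IFI16, with 0.142% of all genes). Trend and robust moderation also gave 1 (IFI16, with 0.127%). Array weights gave 2 lower (TRIM14 and IFI16) and 2 higher (SAMD9 and PARP12), with 2.39% and 2.41% of all genes. The median with TGFB3 against control was -0.50 to -0.32 without 1 array. Between the treatments, 4 were lower and 1 higher with the filter at 100 (3.32% and 4.52% of all genes), and 3 lower and 1 higher with trend and robust moderation (2.15% and 2.81%). Leaving out 1 array gave 1 to 9 lower and 0 to 1 higher. The 9 lower and 1 higher came without seminal plasma replicate 2, with 6.01% and 7.38% of all genes. In the other fits RTP4 was the 1 member lower, with 0.061% to 1.16% of all genes. The median was -0.26 to 0.03 without 1 array, and -0.49 after median centring. The 1 value that reversed was PARP14 with seminal plasma, at 0.50 (limma adjusted p 0.467, range over its alternatives 0.00443 to 0.467) on its second probe set. In the fit with the replicate block, RTP4 had the same log2 fold changes and passed in both comparisons with seminal plasma. Whether the numbers pair the arrays is not known: 4 of 12 arrays were closest to their own number in another group, which cannot exclude a pairing. The highest correlations between groups were control with TGFB3 replicate 1 (0.154) and control with TGFB3 replicate 4 (0.111). As every group holds the same numbers, the block leaves fold changes as they were, so a call lost under it is not a smaller change. Other causes of these shifts were not tested. Signals under 16 give no order, which limits RTP4, USP18, IFI44L and RSAD2 on seminal plasma arrays.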
